A study of Mus musculus with 24 samples.

Results

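The 10 genes described here encode the survival and death proteins of the Bcl2 family that were followed in blood monocytes: Bcl2, Bcl2l1, Mcl1, Bcl2a1b and Bcl2a1d, which restrain apoptosis, Bcl2l11, Bid and Pmaip1, which start it, and Bax and Bak1, which carry it out. They were chosen by gene name from the 53715 genes of an RNA-sequencing table of Ly6Chi and Ly6Clo monocytes, and were read in all 24 libraries. Of all genes, 11230 reached a normalized read count of 50 in at least 1 library and were tested, among them all 10 members. Bcl2a1b and Bcl2a1d passed only through the Ly6Clo libraries, since neither exceeded 31 in any Ly6Chi library.

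Cells were sorted on day 5 from peripheral blood (PB) of C57BL/6 mice aged 8-10 weeks, either wild type (wt) or Notch2 mutant (N2ΔMy). In N2ΔMy mice, Cre recombinase expressed from the Lyz2 locus removes a floxed part of Notch2 in myeloid cells, and the line also carries a GFP allele of Cx3cr1 according to the study's methods. Cells of both genotypes were gated as lineage-negative, CD11b+, GFP+, CD115+ and MHC-II-, and Ly6Chi cells also as CD43-. Mice had received 50 mg per day of Aldara, a crème with 5% imiquimod (IMQ, an agonist of the RNA sensor TLR7), or Sham crème for 4-5 days. The 6 groups of 4 libraries were Ly6Chi cells of each genotype after Sham treatment, Ly6Chi cells of each genotype after IMQ and Ly6Clo cells of each genotype after IMQ. No Ly6Clo group after Sham treatment was analysed here, so the effect of IMQ was examined in Ly6Chi cells alone.

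Apoptosis through mitochondria is decided by contacts between proteins of this family. Bax and Bak1 form pores in the outer mitochondrial membrane, Bcl2 and its anti-apoptotic relatives hold them in check, and the BH3-only proteins, among them BIM (from Bcl2l11), BID and NOXA (from Pmaip1), bind the anti-apoptotic proteins or activate Bax and Bak1 directly. Ly6Clo monocytes patrol blood vessels, arise from Ly6Chi cells and are known to live longer than them. Protein levels and cell death cannot be read from these mRNA values.

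The values are DESeq2-normalized read counts, and their depth, which the files do not state, was inferred as about 9524000 to 19757000 reads per library, from 14574000 in the first series of libraries (replicates 1 and 2) and up to 15592000 in the second (replicates 3 and 4). Notch2 itself stood at 12656 to 20005 in wt libraries and at 7240 to 11518 in N2ΔMy libraries, a count over the whole gene and not over the floxed part alone. Sorted subsets carried their markers. The 3 Ly6Chi markers read here (Ly6c2, Ccr2, Vcan) were lower in Ly6Clo than in Ly6Chi cells of both genotypes. The 6 Ly6Clo markers (Nr4a1, Ace, Treml4, Itgal, Spn, Pou2f2) were higher. Ly6c2 and Spn encode antigens of the gates (Ly6C and CD43), so their direction is no independent check of the sort. Of other cell types, summed markers reached at most 29 for T cells, 73 for NK cells, 1159 for erythroid cells and 1514 for dendritic cells, lay at 808 to 3872 for B cells and reached 5213 for neutrophils, although the neutrophil gene Ly6g stayed under 3 in every library.

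Across the 6 groups, 7 of the 10 members passed limma's moderated F-test (adjusted p up to 0.01), beside 43% of all genes tested. These were Bcl2, Bcl2a1b, Bcl2a1d, Bcl2l11, Bid, Pmaip1 and Bak1, or 5 of 8 without Bcl2a1b and Bcl2a1d, which passed the filter only through the Ly6Clo libraries. Mcl1 (adjusted p = 0.094), Bcl2l1 (adjusted p = 0.41) and Bax (adjusted p = 0.42) did not pass. Blocking on the replicate number let Mcl1 pass as well (adjusted p = 0.0014).

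**Figure D1:**
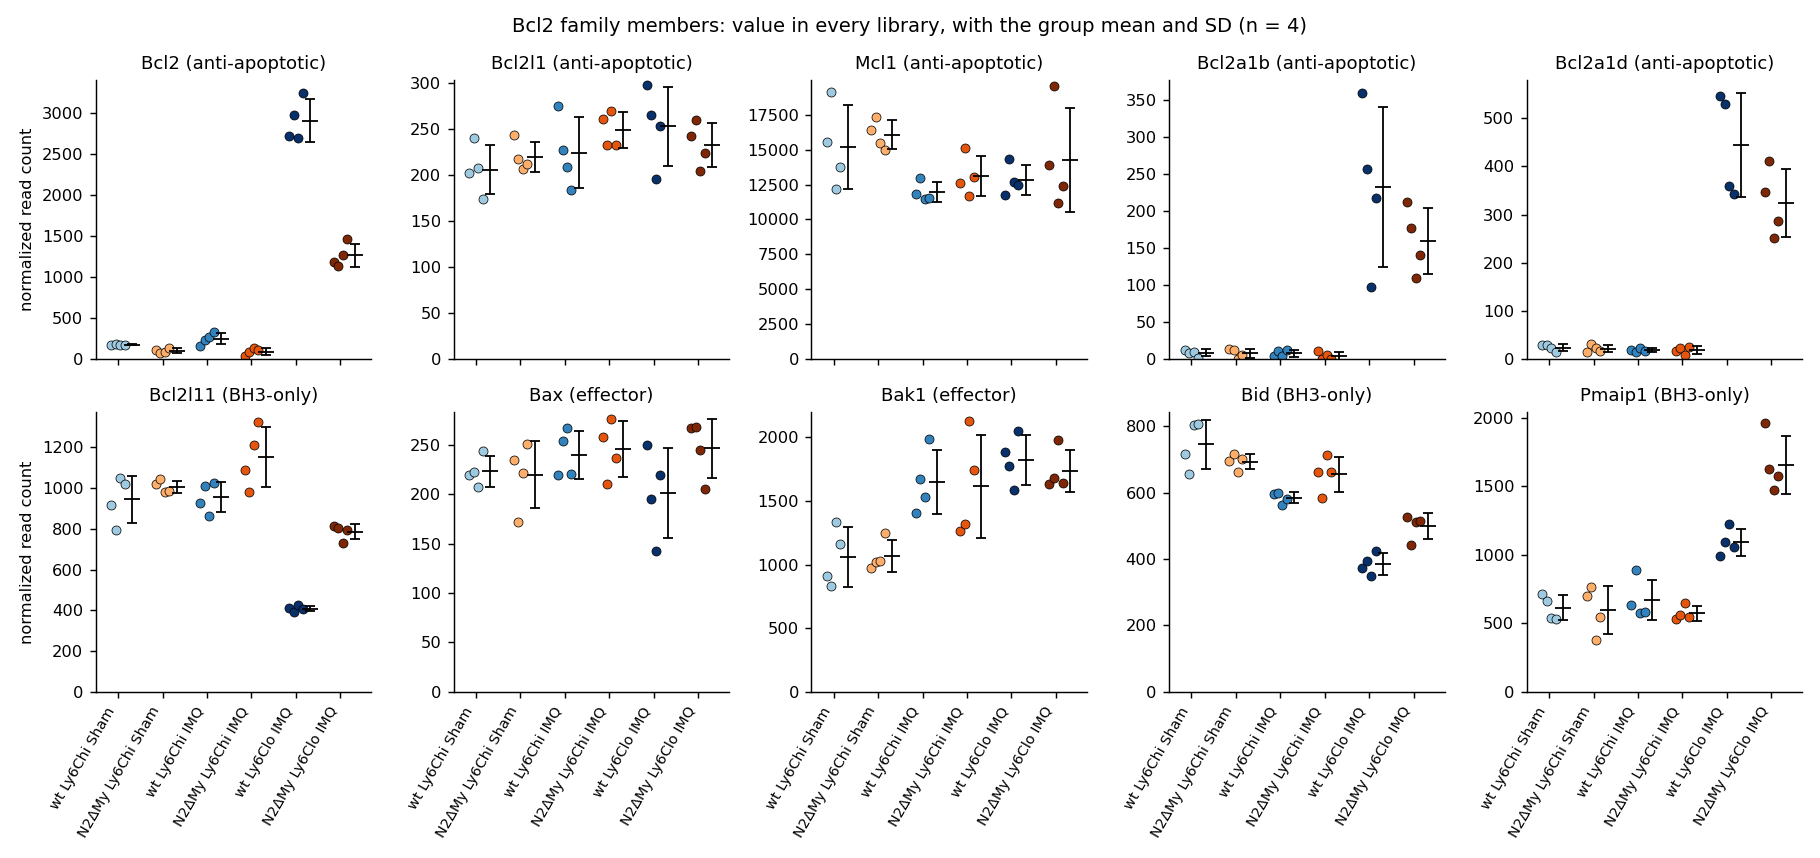
Normalized read counts (y axis, starting at 0 in each panel) of the 10 members in the 6 groups (x axis). Points are the 4 libraries of a group, and the bar with whiskers is their mean and SD. Bcl2, Bcl2a1b and Bcl2a1d stood highest in the Ly6Clo groups, Bcl2l11 and Bid lowest in wt Ly6Clo cells and Pmaip1 highest in N2ΔMy Ly6Clo cells.

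Of the anti-apoptotic genes, Mcl1, whose short-lived protein many myeloid cells depend on, had by far the highest level. Divided by transcript length, Mcl1 stood between 3494 ± 207 normalized reads per kb in wt Ly6Chi IMQ cells and 4697 ± 307 in N2ΔMy Ly6Chi Sham cells (SD, n = 4 libraries each). In the same unit, Bcl2l1, which encodes BCL-XL, stood between 44.9 ± 5.9 and 55.1 ± 9.29, and the libraries of neighbouring groups overlapped at every step of its order. Mcl1 therefore made up 97% to 98% of the summed level per kb of the 5 anti-apoptotic members in each Ly6Chi group. It made up 76.2% ± 4.3 in wt Ly6Clo cells and 84.4% ± 1.69 in N2ΔMy Ly6Clo cells, where Bcl2, Bcl2a1b and Bcl2a1d took more of the sum. The sum leaves out the related gene Bcl2a1a, at 368 ± 70.4 per kb in wt and 240 ± 40.7 in N2ΔMy Ly6Clo cells. Bcl2a1b and Bcl2a1d share much of their sequence (below), and how reads matching both were counted is not known. These shares are therefore approximate.

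**Figure D2:**
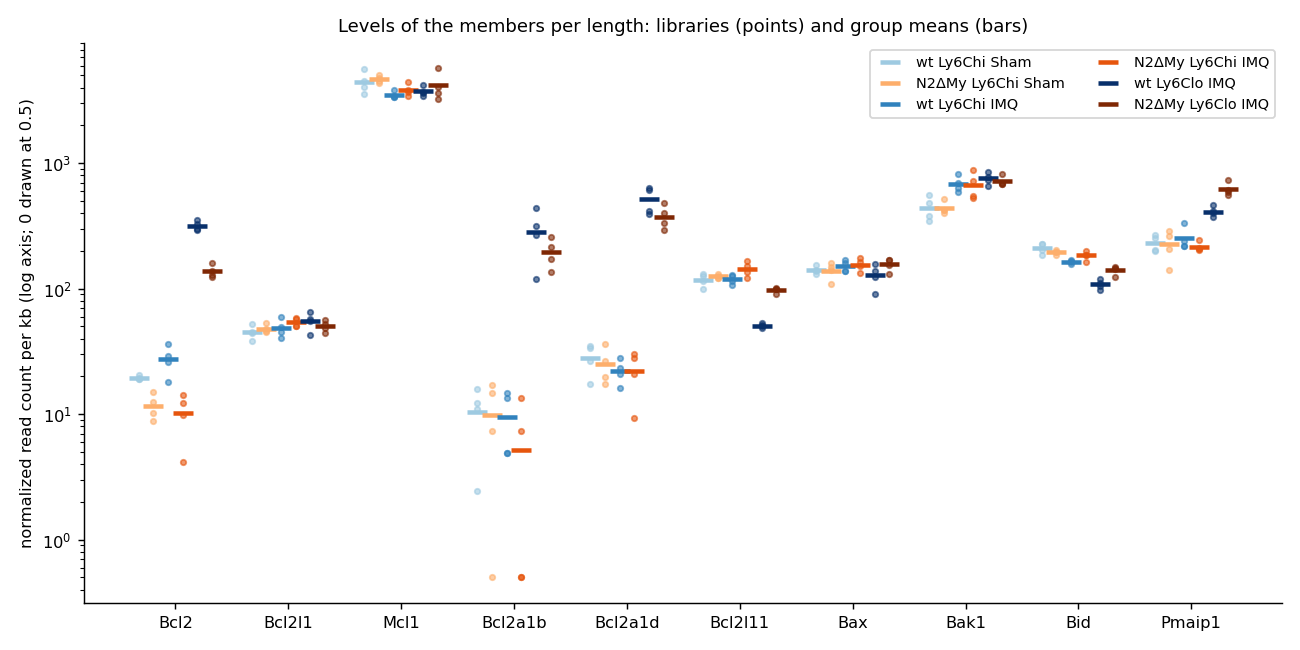
Normalized read count per kb of transcript (y axis, log axis) of each member (x axis). Points are libraries, bars are the means of the 6 groups, and values of 0 are drawn at 0.5. Mcl1 lay above all other members in every group, and the 3 members with the widest spread between groups were Bcl2, Bcl2a1b and Bcl2a1d.

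The contrast of Ly6Clo with Ly6Chi cells under IMQ asked how the subsets differ within a genotype. In wt cells, 6 of the 10 members were called (adjusted p up to 0.05 and a log2 difference of 0.6 or more, up or down), against 24.6% of all genes tested. Bcl2, Bcl2a1b, Bcl2a1d and Pmaip1 were higher and Bcl2l11 and Bid lower in Ly6Clo cells. In N2ΔMy cells, 4 members were called, against 17.4% of all genes, and all 4, Bcl2, Bcl2a1b, Bcl2a1d and Pmaip1, were higher in Ly6Clo cells. Without Bcl2a1b and Bcl2a1d, which passed the filter only through the Ly6Clo libraries, the counts were 4 of 8 in wt and 2 of 8 in N2ΔMy cells. In each genotype 6 of 10 members did not overlap between the subsets, Bcl2a1b and Bcl2a1d among them. Of all genes tested, 35.4% (wt) and 27.8% (N2ΔMy) did not overlap. The subsets were bulk-sorted cells, in which fewer cells of a type and less RNA per cell cannot be told apart.

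Bcl2, the founding survival gene of the family (chr1:106538178-106714274, GRCm38, - strand), read 2716, 2978, 2695 and 3247 in the 4 wt Ly6Clo libraries and 164, 239, 266 and 333 in the wt Ly6Chi IMQ libraries. The groups lay far apart, and the log2 difference was 3.57 ± 0.18 (SE, adjusted p = 4.9e-07), or 11.9-fold. In N2ΔMy cells, Bcl2 read 1186, 1142, 1269 and 1465 in Ly6Clo libraries and 38, 90, 131 and 112 in Ly6Chi IMQ libraries. An antisense gene lies across Bcl2 and was not read here. Again no library overlapped, with a log2 difference of 3.89 ± 0.31 (adjusted p = 7.5e-06). All alternatives and every left-out library kept both calls.

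Bcl2a1b and Bcl2a1d are copies of the gene for A1, a survival protein of activated leukocytes, (chr9:89199209-89207827, + strand, and chr9:88723285-88731914, - strand) and lie on chromosome 9 with the further copy Bcl2a1a. The copies are shown first because their likeness limits how reads can be assigned. Over their 516 coding bases, Bcl2a1b and Bcl2a1d differed at 6 positions (98.8% identical), Bcl2a1a and Bcl2a1b at 11 and Bcl2a1a and Bcl2a1d at 7. The first 90 coding bases hold 6 of the 12 positions at which any of the 3 differ, here in capitals (GENCODE transcripts, GRCm38; Bcl2a1a at chr9:88957051-88957140 on the + strand, Bcl2a1b at chr9:89199360-89199449 on the + strand and Bcl2a1d at chr9:88731630-88731719 on the - strand):
Bcl2a1a: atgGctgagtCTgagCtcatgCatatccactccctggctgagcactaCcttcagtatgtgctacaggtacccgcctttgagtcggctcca
Bcl2a1b: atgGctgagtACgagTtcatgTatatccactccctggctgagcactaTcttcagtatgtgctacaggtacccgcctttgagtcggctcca
Bcl2a1d: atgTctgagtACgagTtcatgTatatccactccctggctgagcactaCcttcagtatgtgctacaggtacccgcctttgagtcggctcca
Only 31.6% of the distinct 75-base windows of the Bcl2a1b transcript, and 32.4% of those of Bcl2a1d, occurred in no transcript of another gene, where 75 bases is the length of the reads. For Bcl2, Bcl2l1, Mcl1, Bcl2l11, Bak1, Bid and Pmaip1 all windows were their own, and for Bax 93.2% were. Bcl2a1b also shares windows with Gm29094, a gene model that overlaps it on the same strand. The split of reads between Bcl2a1b and Bcl2a1d is therefore uncertain, and the sum over the copies is given beside each gene.

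In Ly6Chi cells the A1 genes were close to 0. Bcl2a1b lay between 0 and 14 and Bcl2a1d between 8 and 31 over the 16 Ly6Chi libraries. In wt Ly6Clo libraries Bcl2a1b read 359, 257, 98 and 217, a log2 difference of 4.74 ± 0.48 (SE) from wt Ly6Chi IMQ cells. Bcl2a1d read 545, 530, 359 and 342 there, with a log2 difference of 4.47 ± 0.24. No p-value is given for these differences, since both genes passed the filter only through the Ly6Clo libraries. In both genes replicates 1 and 2, of the first series, were higher than replicates 3 and 4, and no Ly6Clo library overlapped with a Ly6Chi library.

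In N2ΔMy Ly6Clo libraries Bcl2a1b read 212, 177, 110 and 140 and Bcl2a1d 346, 412, 252 and 286. The log2 differences from N2ΔMy Ly6Chi IMQ cells were 5.69 ± 0.79 and 4.12 ± 0.35, again given without p-values. Since Bcl2a1b was at 0 in replicates 2 and 4 of N2ΔMy Ly6Chi IMQ cells, its fitted difference there depends on the added pseudocount of 1. Over all refits, which also change the libraries and the scaling, the Bcl2a1b difference ran from 3.61 to 6.35. In wt cells it ran from 3.68 to 5.3. Summed over Bcl2a1a, Bcl2a1b, Bcl2a1c and Bcl2a1d, the values were 1235, 1060, 721 and 988 in wt Ly6Clo cells and 49, 33, 35 and 59 in wt Ly6Chi IMQ cells. The sums were 798, 795, 561 and 612 in N2ΔMy Ly6Clo cells and 33, 29, 19 and 36 in N2ΔMy Ly6Chi IMQ cells. The summed level thus did not overlap between subsets in either genotype (log2 differences of 4.49 and 4.54). No p-value is given for the sums either, since they rest on genes that passed the filter only through the Ly6Clo libraries.

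The A1 copies also shared sequence before their starts. The letters TGGGAA, the core bound by RBPJ, the DNA-binding partner of Notch receptors, were searched on both strands of the RefSeq promoter windows (GRCm38.p6, 250 bases before to 50 after each start) and found in 25.6% of all 32851 windows. Of the 9 members with a window, Bcl2a1b, Bcl2a1d and Bax held it, and Bcl2, Bcl2l1, Mcl1, Bcl2l11, Bak1 and Bid did not. Of the 3 motifs searched, the other two were the NBRE bound by NR4A1 (AAAGGTCA, in 1.51% of all windows and in no member's) and the kappaB motif of NF-kappaB (in 8.46% of all windows and in 1 Bcl2l1 window). The 60 bases around the match, which lies on the opposite strand and so reads TTCCCA (capitals) along the gene, are printed because they differ between the copies at few positions (Bcl2a1a at chr9:88956714-88956773 on the + strand, Bcl2a1b at chr9:89199023-89199082 on the + strand, Bcl2a1d at chr9:88731991-88732050 on the - strand):
Bcl2a1a: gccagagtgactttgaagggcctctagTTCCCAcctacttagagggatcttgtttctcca
Bcl2a1b: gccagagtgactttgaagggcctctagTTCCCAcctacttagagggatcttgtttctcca
Bcl2a1d: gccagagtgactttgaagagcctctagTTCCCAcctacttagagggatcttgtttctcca
The match is a description of these letters alone. No data on RBPJ binding were used here.

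Among the BH3-only genes, Bcl2l11, whose product BIM is a broad antagonist of the survival proteins (chr2:128126038-128162547, + strand), read 410, 392, 425 and 406 in wt Ly6Clo libraries and 926, 1008, 864 and 1024 in wt Ly6Chi IMQ libraries. It was lower in Ly6Clo cells by a log2 difference of -1.22 ± 0.10 (adjusted p = 5.3e-06), with the 4 Ly6Clo libraries close to each other and below all others. In N2ΔMy cells the corresponding libraries read 813, 803, 731 and 794 in Ly6Clo cells and 1089, 983, 1209 and 1325 in Ly6Chi cells. Here the groups did not overlap either, but the difference of -0.54 ± 0.11 (adjusted p = 0.0046) stayed under the fold limit, and it was called without N2ΔMy Ly6Chi IMQ replicate 2 (-0.62) and in the second series alone (-0.73).

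Bid, which links death receptors to mitochondria once cleaved by caspase-8, read 374, 395, 348 and 425 in wt Ly6Clo cells and 595, 598, 563 and 581 in wt Ly6Chi IMQ cells. The log2 difference of -0.60 ± 0.10 (adjusted p = 0.001) lay at the fold limit itself, and the call was lost in 4 of 12 alternatives and without 1 of 4 libraries (wt Ly6Chi IMQ replicates 1 and 2, wt Ly6Clo replicates 1 and 3), at differences of -0.65 to -0.51 over all refits. In N2ΔMy cells Bid differed by -0.39 ± 0.11 (adjusted p = 0.025) and was not called. Part of Bid overlaps Bcl2l13, a gene on the opposite strand that read 522 to 756, and the strand setting of the counting is not given in the sources used here.

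Pmaip1, which encodes NOXA, an antagonist mainly of MCL1 and A1, moved the other way from Bcl2l11. It read 987, 1091, 1226 and 1055 in wt Ly6Clo cells against 578, 582 and 632 in 3 wt Ly6Chi IMQ libraries, with replicate 2 higher than these but below every Ly6Clo library (log2 difference 0.72 ± 0.14, adjusted p = 0.0026). In N2ΔMy cells it read 1959, 1625, 1472 and 1571 against 534, 561, 648 and 545 (log2 difference 1.53 ± 0.12, adjusted p = 5e-06). Subsets did not overlap in either genotype, and the call in wt cells was lost within the first series alone (log2 difference 0.47).

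Neither pore-forming effector was called between the subsets. Bak1 differed by 0.15 ± 0.12 in wt cells (95% interval -0.12 to 0.42) and by 0.13 ± 0.16 in N2ΔMy cells (-0.22 to 0.48). Bax differed by -0.28 ± 0.18 (-0.68 to 0.13) and 0.01 ± 0.15 (-0.33 to 0.34). The intervals for Mcl1 (-0.11 to 0.31 in wt and -0.27 to 0.46 in N2ΔMy cells) and Bcl2l1 (-0.21 to 0.56 and -0.40 to 0.21) also held 0.

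**Figure D3:**
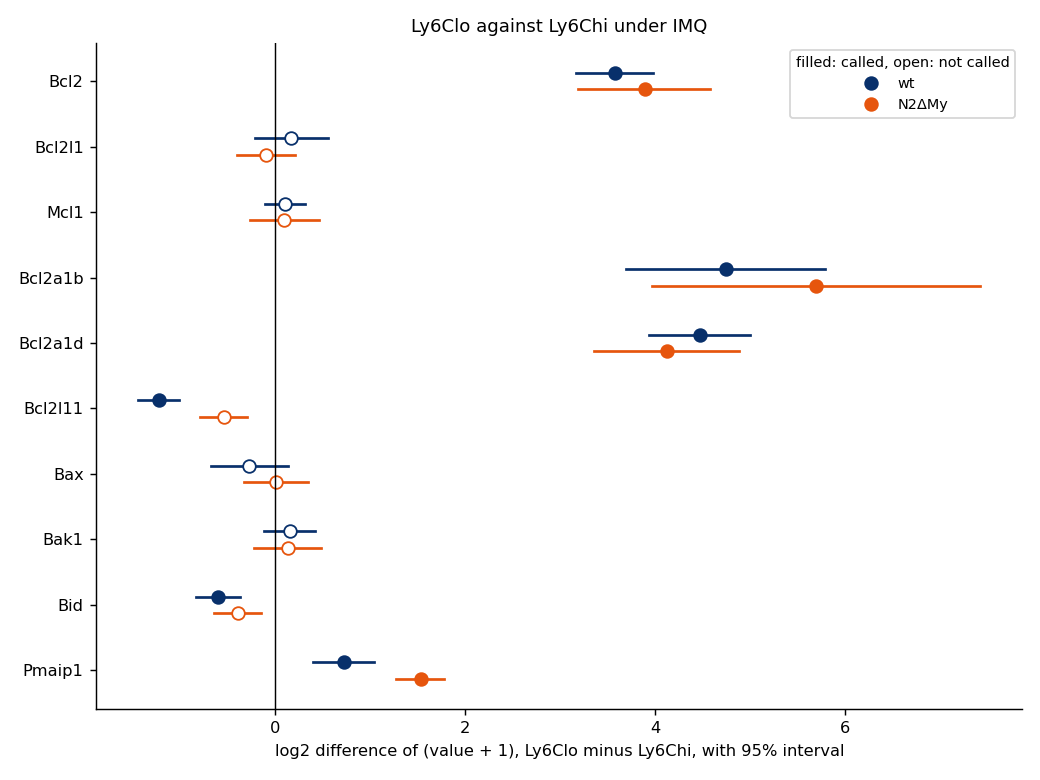
Log2 difference of (normalized read count + 1) between Ly6Clo and Ly6Chi cells under IMQ (x axis, Ly6Clo minus Ly6Chi) for each member (y axis) in wt and N2ΔMy mice. Points are the limma estimates, lines their 95% intervals, and filled points were called. Bcl2, Bcl2a1b and Bcl2a1d lay far to the right in both genotypes, and Bcl2l11 lay to the left, at -1.22 in wt and -0.54 in N2ΔMy cells.

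The comparison of genotypes asked what loss of Notch2 changes within a subset. In Ly6Clo cells after IMQ, 3 of 10 members were called between N2ΔMy and wt, beside 4.78% of all genes tested. Bcl2 was lower in N2ΔMy cells, and Bcl2l11 and Pmaip1 were higher. Bcl2 fell by 1.20 on the log2 scale (SE 0.11, adjusted p = 0.00016), from a mean of 2909 ± 260 to 1266 ± 143 (SD, n = 4 each), a 2.3-fold difference in which the lowest wt library, at 2695, stood above the highest N2ΔMy library, at 1465. Bcl2l11 rose by 0.94 ± 0.10 (adjusted p = 0.00033), from 408 ± 13.6 to 785 ± 37. Both calls held in every alternative and without any library.

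Pmaip1 rose by 0.60 ± 0.11 (adjusted p = 0.01), from 1090 ± 101 to 1657 ± 211, and its groups did not overlap. This value sits at the fold limit of 0.6, and the call was lost in 5 of 12 alternatives and without wt replicate 1, wt replicate 4 or N2ΔMy replicate 1, with differences of 0.42 to 0.78 over all refits. Bid was higher in all 4 N2ΔMy libraries (441 to 527) than in the 4 wt libraries (348 to 425), with a difference of 0.37 ± 0.12 that did not pass (adjusted p = 0.098). Such separation was found in 12.8% of all genes tested. Bcl2a1d (-0.45 ± 0.21, adjusted p = 0.27) and Bcl2a1b (-0.44 ± 0.36, adjusted p = 0.58) did not pass, and their libraries overlapped. The summed A1 genes differed by -0.52 with overlapping libraries (two-sided exact permutation p = 0.0857, which leaves the library series out). Between same-numbered libraries, which share a library series, both the sum and Bcl2a1d were lower in N2ΔMy cells in 4 of 4 cases. Blocking on the replicate number gave Bcl2a1d an adjusted p of 0.022, with its difference still under the fold limit.

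Bcl2 and Bcl2l11 taken as a pair, per kb of transcript, showed the width of these differences without a test. The ratio of Bcl2 to Bcl2l11 was 6.26 ± 0.688 in wt Ly6Clo cells (5.56 to 7.01 over 4 libraries) and 1.42 ± 0.182 in N2ΔMy Ly6Clo cells (1.25 to 1.62). In the 4 Ly6Chi groups its means lay between 0.07 and 0.23. The lowest wt Ly6Clo library thus stood above the highest N2ΔMy Ly6Clo library, and the Ly6Clo libraries of both genotypes lay above all Ly6Chi libraries.

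**Figure D4:**
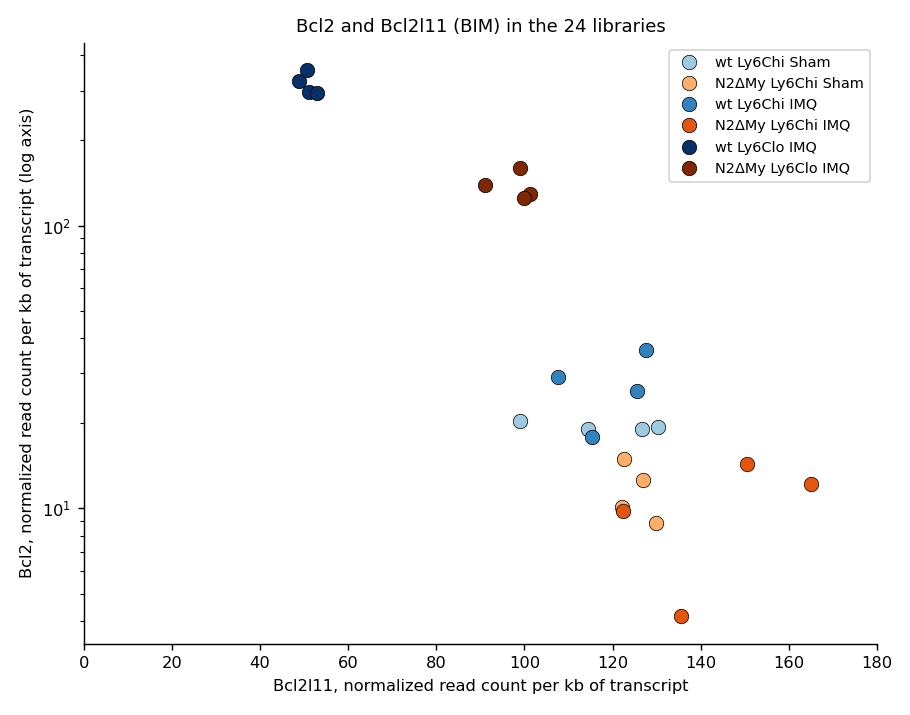
Bcl2 (y axis, log axis) against Bcl2l11 (x axis), both as normalized read count per kb of transcript. Each point is 1 of the 24 libraries, coloured by group. The wt Ly6Clo libraries stand alone at high Bcl2 and low Bcl2l11, the N2ΔMy Ly6Clo libraries lie between them and the Ly6Chi libraries, and the Ly6Chi libraries share the lower right.

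Markers of other cell states moved with the genotype in the same Ly6Clo libraries. The 3 Ly6Chi markers summed to 356 to 1236 in wt and to 5733 to 8213 in N2ΔMy libraries, and 2 of them, Vcan and Ccr2, passed. The 6 Ly6Clo markers summed to 146415 to 167984 in wt and to 82308 to 98975 in N2ΔMy libraries, and 4 passed. The 7 macrophage markers summed to 3963 to 6133 in wt and to 7585 to 11752 in N2ΔMy libraries, with C1qa, C1qb, C1qc and Mertk passing. Of 5 genes listed as platelet markers, 1 passed, Itgb3 (-1.36), which Ly6Clo monocytes also express (1432 to 2124 in wt and 647 to 716 in N2ΔMy libraries), while Pf4 stayed at or under 53 and Ppbp at or under 58. Dendritic cell markers summed to 83 to 531 in wt and 211 to 1514 in N2ΔMy libraries, which overlap. The part of these marker differences in the values of Bcl2, Bcl2l11 and Pmaip1 was not tested.

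Placed on the log2 line from wt Ly6Chi IMQ cells (0%) to wt Ly6Clo cells (100%), N2ΔMy Ly6Clo cells stood at 66.3% for Bcl2, 23% for Bcl2l11 and 38.5% for Bid. The 6 Ly6Clo markers stood between 51.9% and 71.3% and the 3 Ly6Chi markers between 26.4% and 79.1%. The A1 genes stood at 90.7% (Bcl2a1b) and 90% (Bcl2a1d). Pmaip1 stood at 183%, so that its level in N2ΔMy Ly6Clo cells lay outside the range of the wt subsets and not between them. These positions are descriptions of group means over 4 libraries each.

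In Ly6Chi cells no member was called between the genotypes, after IMQ (0.0267% of all genes tested were called) or after Sham (0.0178%). Of all genes tested, 3.84% after IMQ and 3.15% after Sham did not overlap between the genotypes. Among them was Bcl2, lower in every N2ΔMy library than in every wt library in both settings. After IMQ it averaged 92.8 ± 40.2 in N2ΔMy and 250.5 ± 69.9 in wt cells, a log2 difference of -1.51 ± 0.37 (adjusted p = 0.49). Blocking on the replicate number, this difference passed (adjusted p = 0.0033), as it did with the library series as a covariate (adjusted p = 0.022) and with all 24 libraries in the fit. After Sham treatment Bcl2 read 115, 81, 93 and 137 in N2ΔMy and 175, 187, 177 and 175 in wt cells, a difference of -0.77 ± 0.19 (adjusted p = 0.88), which did not pass in any alternative.

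Marker sums also stood at different levels between the genotypes here, though no single marker passed. In Ly6Chi cells the Ly6Clo markers summed to 22515 to 33197 in N2ΔMy and 32154 to 48100 in wt libraries after IMQ, and to 21608 to 27053 and 31782 to 35019 after Sham, overlapping after IMQ, and 0 of the 6 passed in either comparison. The 3 Ly6Chi markers summed to 41790 to 48811 in N2ΔMy and 31029 to 37992 in wt libraries after IMQ, and to 33217 to 39979 and 26147 to 31393 after Sham. The 7 macrophage markers summed to 3230 to 4167 and 2180 to 2965 after IMQ, and to 2064 to 2421 and 1886 to 2000 after Sham. Both lists stood apart between genotypes, with 0 genes passing, and the part of the marker differences in the Bcl2 values was not tested. For Bcl2l11, the libraries of the genotypes overlapped after IMQ (difference 0.26 ± 0.11, adjusted p = 0.78) and after Sham (0.10 ± 0.10, adjusted p = 0.95). Pmaip1 differed by -0.21 ± 0.14 after IMQ (95% interval -0.53 to 0.12) and by -0.08 ± 0.21 after Sham (-0.54 to 0.39).

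**Figure D5:**
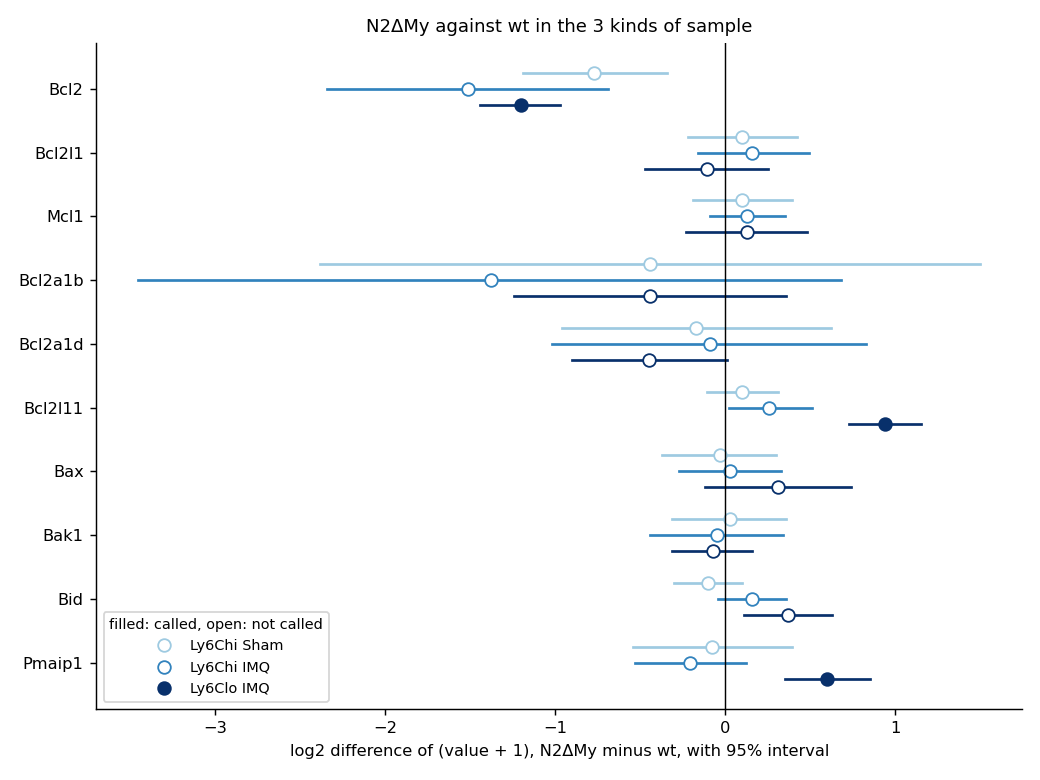
Log2 difference of (normalized read count + 1) between genotypes (x axis, N2ΔMy minus wt) for each member (y axis) in Ly6Chi cells after Sham, Ly6Chi cells after IMQ and Ly6Clo cells after IMQ. Points are limma estimates, lines 95% intervals, and filled points were called. Bcl2 lay left of 0 in all 3 kinds of sample, while Bcl2l11 (0.94) and Pmaip1 (0.60) were called to the right in Ly6Clo cells alone.

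The difference between these differences was tested as an interaction of genotype and subset under IMQ. It called 2 members, beside 1.03% of all genes tested. For Bcl2l11 the genotype difference was larger in Ly6Clo than in Ly6Chi cells by 0.68 ± 0.14 (adjusted p = 0.019) and for Pmaip1 by 0.81 ± 0.19 (adjusted p = 0.047). Under upper quartile scaling neither passed (Bcl2l11 0.62, adjusted p = 0.051; Pmaip1 0.74, adjusted p = 0.11), and neither did within the second series (0.45 and 0.38). Without wt Ly6Chi IMQ replicate 2 the call of Bcl2l11 was lost, and that of Pmaip1 was lost without any 1 of 11 of the 16 libraries. For Bcl2 the interaction was 0.31 ± 0.40 (95% interval -0.53 to 1.16, adjusted p = 1), so that a different effect of the genotype on Bcl2 in the 2 subsets was not shown.

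IMQ was compared with Sham in Ly6Chi cells of each genotype. In wt cells 1 of 10 members was called, beside 9.49% of all genes, and in N2ΔMy cells 0 of 10, beside 8.7%. Libraries after IMQ and after Sham did not overlap for 2 members in wt and 1 in N2ΔMy cells. Of all genes tested, 21.5% and 19.5% did not overlap. The member called was Bak1, the pore-forming effector, which read 1407, 1671, 1534 and 1983 after IMQ and 909, 832, 1337 and 1160 after Sham in wt cells. It rose by 0.65 ± 0.16 (adjusted p = 0.018), with no overlap between the groups. In N2ΔMy cells it read 1267, 1318, 2131 and 1743 after IMQ and 970, 1017, 1028 and 1249 after Sham, again without overlap, and the difference of 0.57 ± 0.16 (adjusted p = 0.045) stayed just under the fold limit. The call in wt cells was lost in 3 of 12 alternatives and without 1 of 4 libraries (Sham replicates 1 and 2, IMQ replicates 2 and 4), and the call in N2ΔMy cells was gained in the second series alone and without Sham replicate 4, IMQ replicate 1 or IMQ replicate 2.

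The interaction of genotype and treatment called 0 genes of all 11230 (0%), by limma with adjusted p up to 0.05, with 177 genes at an unadjusted p under 0.05, and the Bak1 interaction was -0.08 ± 0.24. The effect of IMQ on Bak1 was therefore not shown to differ between genotypes. Neutrophil markers summed to 2 to 59 after Sham and to 921 to 5213 after IMQ in the same Ly6Chi libraries, mostly through S100a8 and S100a9, while Ly6g stayed under 3 in all of them. The part of this in the Bak1 value was not tested. Bak1 overlaps Ggnbp1 on the opposite strand, which read 5 to 71.

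None of the other members was called with IMQ. Bid was lower after IMQ in wt cells, with a difference of -0.35 ± 0.10 (adjusted p = 0.034) under the fold limit. Its libraries did not overlap (655 to 805 after Sham, 563 to 598 after IMQ), like those of 21.5% of all genes tested. In N2ΔMy cells Bid differed by -0.09 ± 0.09 (adjusted p = 0.6). Mcl1 differed by -0.32 ± 0.13 in wt (adjusted p = 0.12) and -0.30 ± 0.10 in N2ΔMy cells (adjusted p = 0.079), with overlapping libraries in both. It was lower after IMQ in 4 of 4 comparisons of same-numbered libraries in each genotype. Same numbers mark the library series, and a closer pairing of Sham and IMQ libraries was not shown. Blocking on the replicate number gave Mcl1 adjusted p values of 0.014 and 0.031 in limma. The series as a covariate gave 0.022 and 0.019, with both differences under the fold limit. Bcl2 differed by 0.44 ± 0.20 in wt cells (adjusted p = 0.17) and passed without IMQ replicate 1, its lowest library at 164, at a difference of 0.63. In N2ΔMy cells Bcl2 differed by -0.31 ± 0.36 (adjusted p = 0.65). Bcl2a1b differed by -1.01 ± 1.11 in N2ΔMy cells (adjusted p = 0.62), between libraries of 0 to 14, and the summed A1 genes by -0.55 (two-sided exact permutation p = 0.0857).

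Further genes of the same pathway were read from lists. Of 15 other genes of the family, 9 passed the filter, and Bcl2l10, Bok, Bik and Hrk, which did not, stayed under 3 in every library. Between the subsets under IMQ, 2 rose and 2 fell in Ly6Clo cells of each genotype, where 24.6% (wt) and 17.4% (N2ΔMy) of all genes were called. Bcl2a1a, which passed the filter only through the Ly6Clo libraries (at most 26 in any Ly6Chi library), rose by 4.31 in wt (3.63 to 4.7 over refits) and 5.09 in N2ΔMy cells (3.76 to 5.7). Without it the count was 3 of 8 in each genotype. Bbc3, which encodes the BH3-only protein PUMA, rose by 0.60 and 0.70. Bnip3, a mitophagy gene, fell by 1.21 and 1.04 and Bad, a BH3-only gene controlled by growth factors, by 0.86 and 0.67. The call of Bbc3 was lost in 4 of 12 alternatives and without 4 of 8 libraries in wt cells, and in 2 of 12 and without 3 of 8 in N2ΔMy cells. That of Bnip3 was lost in 2 of 12 alternatives in each genotype and without N2ΔMy Ly6Chi IMQ replicate 2 or Ly6Clo replicate 4, and that of Bad in N2ΔMy cells in 1 of 12 and without Ly6Clo replicate 4. None was called between genotypes or by IMQ, and the medians of the 9 lay at 0.31 (wt) and 0.27 (N2ΔMy) for IMQ against 0.01 for all genes.

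Downstream of the family, the 18 genes of the apoptosome, caspases and their inhibitors were all tested. In Ly6Clo against Ly6Chi cells, 1 rose and 2 fell in each genotype. Htra2, a mitochondrial protease, was higher (1.63 in wt, 1.18 in N2ΔMy). Birc5 (-3.85 and -1.88), the gene for the mitotic protein survivin, and Casp6 (-0.84 and -0.80) were lower. In N2ΔMy cells the Casp6 call was lost in the first series alone and the Birc5 call in the second series alone. The 3 of 18 called, Birc5 among them, lie below the 24.6% and near the 17.4% of all genes called. With IMQ, 1 of 18 rose in Ly6Chi cells, again Birc5 (3.51 in wt, 3.44 in N2ΔMy), beside 9.49% and 8.7% of all genes. Birc5 passed the filter only through the Ly6Chi IMQ libraries (up to 71, against at most 8 after Sham and 21 in Ly6Clo cells). Counts that include it are therefore partly set by the filter. Its low values elsewhere make its differences depend on the processing (2.19 to 3.85 with IMQ in wt cells over refits). The N2ΔMy call with IMQ was lost with no filter and in the second series alone. Between genotypes 0 of 18 were called in any subset. Their medians in the subset comparison were -0.13 and -0.24, beside -0.01 for all genes in each genotype.

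Of 12 death receptor genes, 10 were tested, and 2 were called with IMQ in each genotype, beside 9.49% and 8.7% of all genes. Tnfsf10, which encodes the death ligand TRAIL, fell by 3.16 in wt and 3.15 in N2ΔMy cells, and Ripk3, a kinase of necroptosis, rose by 1.59 and 1.23. None was called between subsets or genotypes. Of 20 regulators, 3 rose in Ly6Clo cells of wt mice (Phlda3 by 5.23, Ddit3 by 1.20, Csf1r by 0.79), and in N2ΔMy cells 3 rose (Phlda3 by 4.09, Ddit3 by 1.08, Cdkn1a by 0.60) and Csf2rb fell by 0.71. These 3 and 4 of 20, with Phlda3 in both, lie below or near the 24.6% and 17.4% of all genes called. Phlda3 passed the filter only through the Ly6Clo libraries (at most 4 in any Ly6Chi library). Counts that include it are therefore partly set by the filter, and its difference depends on the processing (3.33 to 5.88 in wt cells over refits). The Cdkn1a call was lost in 5 of 12 alternatives and without any 1 of 6 of 8 libraries (0.21 to 0.99). Of 9 genes of Mcl1 protein turnover, 7 were tested, and Ube2c alone was called. It was higher with IMQ (4.37 in wt, 4.00 in N2ΔMy) and lower in Ly6Clo cells (-3.76 and -2.52). Of all genes, 9.49% and 8.7% were called with IMQ and 24.6% and 17.4% between subsets. Ube2c too passed the filter only through the Ly6Chi IMQ libraries, with at most 36 in all others, so these calls are partly set by the filter. Its differences ran from 3.07 to 5.29 with IMQ and from -4.43 to -2.72 between subsets in wt cells over refits, and the latter call was lost in the second series alone. Phlda3 and Cdkn1a are p53 targets, Ddit3 is a stress factor, Csf1r and Csf2rb are growth factor receptors, and Ube2c is an enzyme of mitotic protein breakdown.

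Genes whose 6 group means most resembled those of a member were ranked by the root mean square difference of centred log2 means. For Bcl2 the nearest were Cd274 (0.254), a pair of gene models known by clone names only, Itga3 (0.331) and Tcf7l2 (0.341). For Bcl2l11 they were Gm10073, Tbc1d4, Nat10, Rpl31-ps8 and Dctpp1, at 0.0797 to 0.0998. For Bak1 they were Nlrx1, Mphosph6, Anxa11, Cbr4 and Gtf2h2, at 0.0452 to 0.0715. Likeness is easier for a gene such as Bak1, whose group means span 0.80 on the log2 scale, than for Bcl2, whose means span 5.09.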

How the data were processed

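Ly6Chi and Ly6Clo monocytes of 24 samples were profiled by stranded total RNA-sequencing with 75-base single reads. The authors trimmed reads with Trim Galore 0.4.4, aligned them with STAR 2.5.3a to GRCm38.p6 in the nf-core/rnaseq pipeline and normalized counts with DESeq2 (tools from the submitters' processing notes and the study's methods). The program that counted reads, and its strand setting, are not given in the sources used here. The deposited values are scores: normalized counts rounded to whole numbers, which are not raw counts, so no count model was used. Columns of the authors' own comparisons (fold changes, standard errors, test statistics, p-values) were not used.

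Groups came from the labels. Controls are Sham-treated by their labels and untreated by the study's text on RNA. The design text calls the 4 libraries of a group biological replicates. Log2(value + 1) was compared with limma 3.58.1 in R 4.3.3 (lmFit, eBayes with trend) for genes reaching 50 in at least 1 of 24 libraries, with Benjamini-Hochberg adjustment over all 11230 genes. A call needed an adjusted p up to 0.05 with a log2 difference of 0.6 or more, up or down. The F-test limit was 0.01. Single values were compared by two-sided exact permutation tests over 70 splits. On simulated data, 100 of 100 genes changed by 2 on the log2 scale were recovered for N2ΔMy against wt Ly6Clo cells (10481 genes). Of 100 changed by 1, 77 were recovered there and 35 for the interaction of genotype and subset (10492 genes). In each of these simulations 5 unchanged genes were called.

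Members and lists were chosen with earlier results of these data known. Of the marker lists, 2 genes are not reported here and were left out of the sums and counts. All 10 members were given in every group, at most 4 called genes per further list and comparison were named by size of the difference, and for the member with the smallest F-test p of each role the 5 genes of nearest pattern. Same-numbered libraries deviated together from their group means (correlations 0.16 to 0.619 in all comparisons). The replicate numbers also mark the library series, and within series the correlations were -0.116 to 0.263. For IMQ against Sham they were -0.116 to 0.094 within series, so a pairing closer than the series was not shown there. Depth was inferred from the whole numbers each library skips or doubles (tested on 9 simulated libraries: 8 were recovered exactly, and 1, whose scale was the simple ratio 6 to 5, missed by 8.33%, so an inferred depth can be off by that much). Counting intervals need raw counts and were not given. Windows and overlaps came from GENCODE transcripts of another release than the authors', and promoters from RefSeq. Alternatives were another pseudocount, floor, filter, scaling and variance model, the block, the series, and each library left out. Tables and figures were made with pandas 2.3.3, numpy 2.4.6, matplotlib 3.10.9 and scipy 1.17.1 in Python 3.11.15.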

Additional observations from a re-analysis of the deposited data

Results flagged for a closer look

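For Bcl2l11 the genotype difference (N2ΔMy minus wt) was larger in Ly6Clo than in Ly6Chi cells under IMQ by 0.68 on the log2 scale, and for Pmaip1 by 0.81, by the interaction term of limma. Both lost their call under upper quartile scaling, as given above.

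In 2 of 60 sets of 4 libraries (10 members in 6 groups) 1 library lay far from the other 3 by Dixon's ratio, at 187 for Bcl2 in wt Ly6Chi Sham replicate 2 and at 1981 for Bak1 in N2ΔMy Ly6Clo replicate 3. Chance alone gives about 1 such set in 20. Neither library entered a comparison of 2 groups in which its gene was called.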

How the results depend on the processing

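The number of members called kept within 1.5 times its value in all alternatives and without any library for the subset comparisons (5 to 6 in wt, 4 to 5 in N2ΔMy), for the genotypes in Ly6Clo (2 to 3) and in Ly6Chi Sham cells (0), for the interaction with treatment (0) and for the 6 groups (7 to 8). For IMQ against Sham in wt cells the count went from 1 to 0 with no filter, without the trend and in the second series alone, and lay at 0 to 2 with a library left out. In N2ΔMy cells it was 1 in the second series alone and 0 to 1 with a library left out. For the genotypes in Ly6Chi IMQ cells it was 1 (Bcl2) with the replicate block, with the series as a covariate and with all 24 libraries, and 0 with any library left out. For the interaction with subset it was 2 as reported and with the replicate block, 1 with no filter, without the trend and with all 24 libraries, 0 under upper quartile scaling and in the second series alone, and 0 to 2 with a library left out. The replicate block changed no other member's call in the pairwise comparisons, though it raised the genes called over the whole table between genotypes in Ly6Clo cells from 537 to 939, in Ly6Chi IMQ cells from 3 to 54 and for the interaction with subset from 116 to 271. The series as a covariate gave 830, 29 and 210 for these, the second series alone 180, 1 and 18 (and 592 against 1066 for IMQ in wt cells), and no filter 215 between genotypes in Ly6Clo and 8 in Ly6Chi IMQ cells. In Ly6Chi IMQ cells, all 24 libraries gave 15 and no trend 0. In Ly6Chi Sham cells the 2 genes called became 7 with no filter and 1 in 5 other settings. Over 336 refits of the 16 member differences called, 293 kept the call and 43 lost it. Over 220 refits of 11 that were not called, 10 gained a call. In all of these 0 changed sign; the cause of lost calls was not tested. DESeq2 was not run in place of the model, since the table holds no raw counts. Calls near the fold limit (Bak1, Bid, Pmaip1, Bbc3, Cdkn1a) were lost in some refits, and values of single A1 genes in Ly6Chi libraries, at most 31, are low.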
